A study of Mus musculus with 6 samples.

Results

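MicroRNA genes were read by 298 of the 35556 probe sets of an array hybridised with RNA from mouse embryo heads. They were chosen by name: a probe set was taken when the platform's annotation gave it a single gene symbol of the microRNA type (Mir or Mirlet followed by a digit), whatever its brightness, and host genes of microRNAs (names ending in hg) were left out. The 298 probe sets stand for 296 genes, because Mir713 has 3. The rule itself used names and no measured value, but it was set with earlier results of these data known. A further 61 probe sets carry a microRNA among several symbols and are not members.

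RNA was taken from 6 heads at age E10.5, 3 wild type (WT) and 3 labelled Tasp1 KO (Tasp1-/-), each a separate embryo per the labels. All came from intercrosses of Tasp1+/- mice on the C57Bl6 background, so litters could hold both genotypes, and the tissue was prosencephalon with mesencephalon, the prospective forebrain and midbrain. Taspase1 is a protease that cleaves the histone methyltransferase MLL (Kmt2a) and the general transcription factor TFIIA (Gtf2a1), and the study asked which genes it regulates during development. Every cell of a KO embryo carries the germline loss, and no other allele or agent is named in the labels.

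MicroRNAs are short RNAs that guide Argonaute proteins to messenger RNAs and lower their translation and stability. A long primary transcript is cut by Drosha and Dgcr8 into a hairpin, exported by Xpo5 and cut again by Dicer1, and 1 arm of the hairpin is kept as the mature microRNA. Bases 2 to 8 of the mature RNA, the seed, set most of its target choice, so microRNAs with the same seed form a family. Neighbouring hairpins are often cut from 1 primary transcript, a polycistron. In the embryonic brain, miR-9 is abundant in neural progenitors and miR-124 in neurons, miR-219 is known for oligodendrocyte differentiation, and the miR-17-92 polycistron is known for progenitor proliferation.

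The sequences below are those of the families on which the results turn, so that it can be seen what the loci share. They are RefSeq sequences on the mouse build GRCm38.p6, written 5′ to 3′, and capitals mark the seed. The miR-9 arms come in identical form from Mir9-1 on chromosome 3 and Mir9-3 on chromosome 7.
mmu-miR-9-5p: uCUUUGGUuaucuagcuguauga
mmu-miR-9-3p: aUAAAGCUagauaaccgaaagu
The 6 Mir181 genes lie in pairs on chromosomes 1, 2 and 8, and their main arms share the seed ACAUUCA.
mmu-miR-181a-5p: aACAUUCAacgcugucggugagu
mmu-miR-181b-5p: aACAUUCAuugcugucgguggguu
mmu-miR-181c-5p: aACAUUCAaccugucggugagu
mmu-miR-181d-5p: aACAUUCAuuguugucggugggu
Mir219a-1 on chromosome 17 and Mir219a-2 on chromosome 2 give the same 5p arm.
mmu-miR-219a-5p: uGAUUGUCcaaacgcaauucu
The Mir17-92 polycistron on chromosome 14 holds several seeds; miR-17 and miR-20a share AAAGUGC, and miR-19a and miR-19b share GUGCAAA.
mmu-miR-17-5p: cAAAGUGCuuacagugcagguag
mmu-miR-18a-5p: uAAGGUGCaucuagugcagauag
mmu-miR-19a-3p: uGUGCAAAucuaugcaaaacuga
mmu-miR-20a-5p: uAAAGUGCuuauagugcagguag
mmu-miR-19b-3p: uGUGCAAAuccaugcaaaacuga

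The Mir9 hairpins are shown because a probe set for a hairpin could read more than the mature arms. Capitals mark the 2 mature arms, which are the same in all 3 loci, whereas the loop and the flanks differ. Mir9-2, on chromosome 13, has no member probe set.
Mir9-1 hairpin (chr3:88215598-88215686, plus strand): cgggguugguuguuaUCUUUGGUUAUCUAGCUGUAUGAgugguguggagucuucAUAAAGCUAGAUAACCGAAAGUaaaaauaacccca
Mir9-2 hairpin (chr13:83738814-83738885, plus strand): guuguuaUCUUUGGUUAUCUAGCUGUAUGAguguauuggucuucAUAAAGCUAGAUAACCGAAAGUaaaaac
Mir9-3 hairpin (chr7:79505264-79505353, plus strand): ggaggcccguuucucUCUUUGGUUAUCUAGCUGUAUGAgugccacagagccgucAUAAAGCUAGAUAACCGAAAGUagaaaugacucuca
Aligned end to end, the Mir9-1 and Mir9-3 hairpins were identical at 78.9% of columns, with a longest shared run of 26 bases. Which RNA a probe set reads (primary transcript, hairpin or mature form), and from which bases, are points not given in the sources used here. Cross-hybridisation between loci with the same arms was not tested, and levels are therefore compared between heads for 1 probe set at a time, never between probe sets.

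Values are the deposited log2 signals, so a difference of 1 is a factor of 2. Across all probe sets, arrays correlated at 0.989 to 0.996, and their medians lay between 7.35 and 7.45. WT 1 stood apart on the first principal component (46.4% of the variance), at 0.226 against -0.103 to 0.020 for the other 5 heads. Xist read 12.32 in WT 2 and between 4.90 and 5.24 elsewhere, while the Y-linked Kdm5d read 5.48 in WT 2 and between 9.76 and 9.88 elsewhere, so WT 2 has a female pattern and the other 5 heads a male one. The Tasp1 probe set was 0.24 log2 units higher in the KO-labelled heads (8.63, 8.63 and 8.50) than in the WT-labelled heads (8.10, 8.45 and 8.49), with a limma adjusted p of 0.856. Its place with respect to the deletion was not given in the sources used here. It therefore does not check the genotype labels, and the heads are named by those labels.

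No microRNA gene probe set passed the test between KO and WT heads. In a limma fit to all 35556 probe sets, 0 of the 298 had a Benjamini-Hochberg adjusted p under 0.05, against 9 of all probe sets (0.0253%) and 0 of the 21789 probe sets with 1 gene symbol. At an unadjusted p under 0.05 there were 16 members (5.37%), against 5.71% of all probe sets and 4.02% of those with 1 symbol; an ordinary linear model without moderation gave 0 and 19 members. With 3 heads per group, the exact two-sided permutation test of a single probe set cannot give a p below 0.1.

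With all 6 heads, the differences that reached an unadjusted p under 0.05 lay mostly on one side, but less so without WT 3 or KO 3. Of the 16 members, 15 were lower in KO heads (5.03%, against 2.25% of all probe sets and 2.51% of those with 1 symbol) and 1 was higher (0.336%, against 3.46% and 1.51%). There were 9 lower and 2 higher without WT 2, and 22 lower and 1 higher without WT 1. Without WT 3 there were 13 lower and 8 higher, and without KO 3 17 lower and 5 higher. Without KO 1 there were 10 lower and without KO 2 13 lower, with 0 higher in both. In 30 members (10.1%) the KO and WT heads did not overlap, against 11.1% of all probe sets and 10.9% of those with 1 symbol; 23 of them were lower in KO heads (7.72%, against 5.44%, and 6.76% of those with 1 symbol) and 7 higher (2.35%, against 5.69% and 4.15%). The member count without overlap was thus near the background.

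Across the whole group the shift was small. The median difference, KO minus WT, was -0.01 log2 units over the 298 members, with 136 higher and 162 lower, and -0.01 over probe sets with 1 symbol. Median centring of each array gave 104 higher and 194 lower, and leaving out WT 2 gave 157 higher and 141 lower. Differences smaller than 1.2-fold were found in 279 members, and the 95% confidence interval of 249 members lay within 0.5 log2 units on both sides of 0. The median half-width of these intervals was 0.22 log2 units.

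Most microRNA probe sets were dim. Member signals ran from 3.10 to 11.17, the median member lay at the 24.0th percentile of mean signal among all probe sets, and 93 of 298 lay above the 40th percentile, a signal of 6.77. Those 93 had a median difference of -0.05 log2 units (31 higher, 62 lower), and held 12 of the 15 members that were lower at an unadjusted p under 0.05. The 14064 probe sets with 1 symbol above that signal had a median of -0.01 (6312 higher, 7752 lower). Of these 14064, 424 were lower at an unadjusted limma p under 0.05. Without WT 2 the median of the 93 members was -0.01, with 44 higher and 49 lower. The 205 dimmer members had a median difference of 0.01, with 105 higher and 100 lower.

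**Figure D1:**
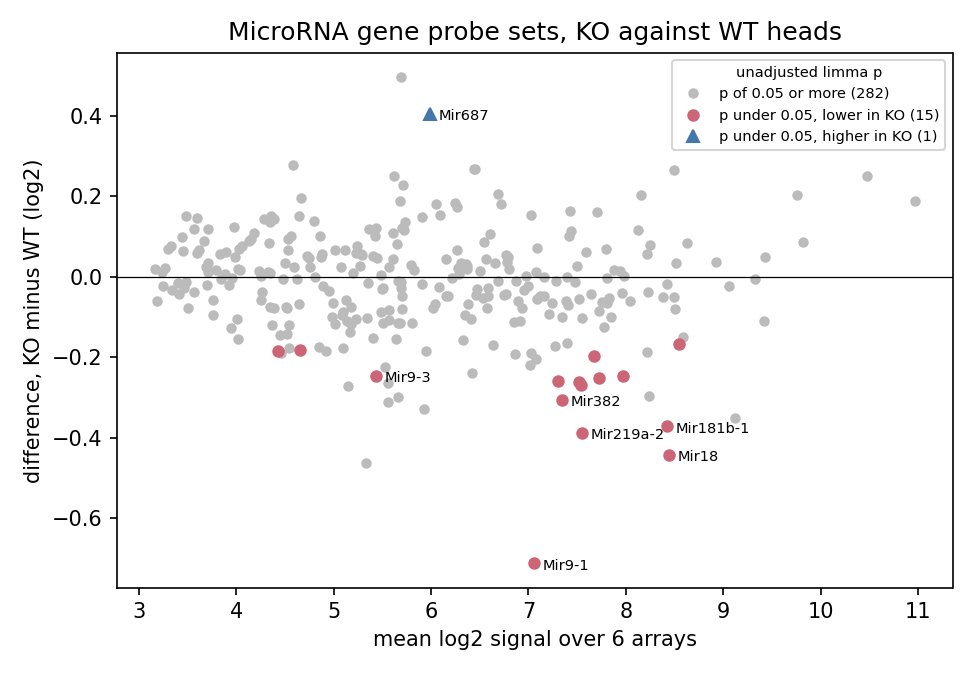
Each point is 1 of the 298 microRNA gene probe sets, with its mean log2 signal over 6 arrays on the horizontal axis and the KO minus WT difference in log2 units on the vertical axis; red circles and the blue triangle mark an unadjusted limma p under 0.05. Mir9-1 lies lowest at -0.71, 15 red points lie below 0, and Mir687 is the single blue triangle at 0.40.

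The Mir9 loci gave the widest separation between the groups. miR-9 restrains progenitor genes such as Tlx and promotes the onset of neurogenesis. Mir9-1 read 7.53, 7.29 and 7.42 in WT 1, 2 and 3 and 6.76, 6.75 and 6.60 in KO 1, 2 and 3. All 3 KO heads lay below all 3 WT heads, with a gap wider than the range of either group. The means were 7.41 ± 0.12 in WT and 6.70 ± 0.09 in KO heads (SD, n = 3), a difference of -0.71 (SE 0.09, 95% confidence interval -0.93 to -0.49), which puts WT at 1.64 times KO. The unadjusted limma p was 0.00012 and the adjusted p over all probe sets 0.284, so the difference did not pass the test. Across the alternatives its size stayed between -0.77 and -0.63, and its adjusted p ran from 0.073 (probe sets with 1 symbol only) to 0.996.

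Mir9-3 read 5.60, 5.58 and 5.50 in the WT heads and 5.33, 5.31 and 5.29 in the KO heads. Here too no KO head reached a WT head, although the probe set was dim, at the 20.5th percentile of signal. Its difference was -0.25 (95% confidence interval -0.41 to -0.08, limma adjusted p = 0.833). Fewer cells of a type and less RNA per cell cannot be told apart in such tissue samples. No probe set for the Mir9-1 host Gm3764 or the Mir9-3 host Mir9-3hg was matched here.

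The third locus was read only through its surrounding long non-coding RNA, a probe set named C130071C03Rik;2810049E08Rik and chosen after its values were seen. In GRCm38.p6, C130071C03Rik spans Mir9-2 on the same strand. The probe set read 9.71, 9.27 and 9.42 in WT heads and 9.26, 8.92 and 8.72 in KO heads. KO 1 lay just under WT 2, and the other KO heads lay below every WT head. The difference was -0.50 (95% confidence interval -0.88 to -0.12), with an unadjusted limma p of 0.018 and an adjusted p of 0.848.

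**Figure D2:**
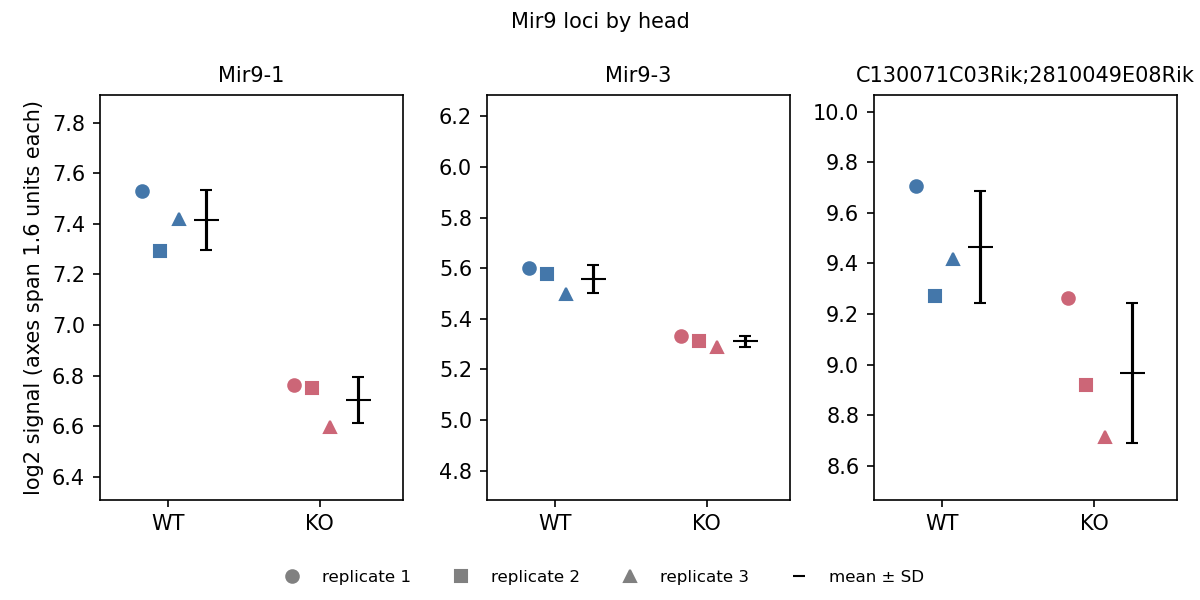
Log2 signal of the probe sets at the 3 Mir9 loci by head; symbols mark replicates 1 to 3, bars give the mean ± SD of 3 heads, and each vertical axis spans 1.6 log2 units. Every KO head lies below every WT head in each panel, by a wide gap for Mir9-1 (means 6.70 and 7.41) and narrowly for the RNA that spans Mir9-2, where KO 1 and WT 2 nearly meet.

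Mir124, the neuronal microRNA that represses non-neuronal genes, gave differences inside the spread of the heads. Mir124a-2 read 6.46, 6.43 and 6.35 in WT and 6.28, 6.38 and 6.38 in KO heads, a difference of -0.07 (95% confidence interval -0.25 to 0.11). Mir124a-3, on chromosome 2, read 5.10, 4.84 and 4.79 against 5.15, 4.65 and 4.85, a difference of -0.02 (-0.36 to 0.31). The groups overlapped at both loci. The sign for Mir124a-3 turned to 0.07 without WT 1 and to 0.09 without KO 2. A probe set shared by Mir124a-1 and its host RNA differed by -0.14 (-0.33 to 0.04).

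The Mir219 genes had unlike values. Mir219a-2, on chromosome 2, read 7.82, 7.77 and 7.64 in WT and 7.21, 7.31 and 7.56 in KO heads. The groups did not overlap, with KO 3 just under WT 3. Its difference was -0.39 (SE 0.11, 95% confidence interval -0.64 to -0.13), with an unadjusted limma p of 0.00945 and an adjusted p of 0.848. Mir219a-1 read 7.64, 7.38 and 7.43 against 7.50, 7.43 and 7.49, a difference of -0.01 (-0.22 to 0.20) whose sign turned without WT 1 (0.07) or KO 2 (0.01). The difference between the 2 loci was not tested.

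All 6 members of the Mir181 family were lower in KO heads, 3 of them at an unadjusted p under 0.05 and 0 at an adjusted p under 0.05. Over all probe sets, 2.25% were lower at an unadjusted p under 0.05. miR-181 is known for lymphocyte development and is also expressed in brain. The median difference was -0.26 log2 units, beside -0.01 over the 298 members. Without WT 2 the median was -0.18 with 5 of 6 lower, and without WT 1 it was -0.34 with 6 of 6 lower. The family was singled out after its values were seen.

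On chromosome 1, Mir181b-1 read 8.59, 8.74 and 8.50 in WT and 8.07, 8.27 and 8.39 in KO heads, with no overlap. Its difference was -0.37 (SE 0.10, 95% confidence interval -0.62 to -0.12, limma adjusted p = 0.845). Its neighbour Mir181a-1 was dim and overlapped: 4.72, 5.22 and 5.11 in WT heads and 4.80, 4.87 and 4.82 in KO heads, where WT 1 lay below every KO head. Its difference of -0.18 was -0.33 without WT 1 and -0.08 without WT 2.

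On chromosome 2, Mir181a-2 read 7.54, 7.89 and 7.61 in WT and 7.47, 7.39 and 7.37 in KO heads, a difference of -0.27 (-0.51 to -0.02) without overlap. Mir181b-2 beside it read 8.94, 9.61 and 9.36 against 9.04, 8.999 and 8.81, a difference of -0.35 (-0.74 to 0.04). WT 1 was again the low WT head and lay among the KO heads. Without WT 2, the head with the female pattern and the highest in both, the differences were -0.16 for Mir181a-2 and -0.20 for Mir181b-2, and without WT 1 that of Mir181b-2 was -0.53.

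On chromosome 8, Mir181c read 8.04, 8.17 and 8.07 in WT and 7.78, 7.83 and 7.93 in KO heads, a difference of -0.25 (SE 0.07, 95% confidence interval -0.42 to -0.07, adjusted p = 0.848). These groups did not overlap. Mir181d beside it read 7.89, 8.10 and 7.71 against 7.75, 7.67 and 7.99, and overlapped widely. Its difference of -0.10 turned to 0.00 without WT 2 and to 0.01 with Xist signal as a covariate.

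**Figure D3:**
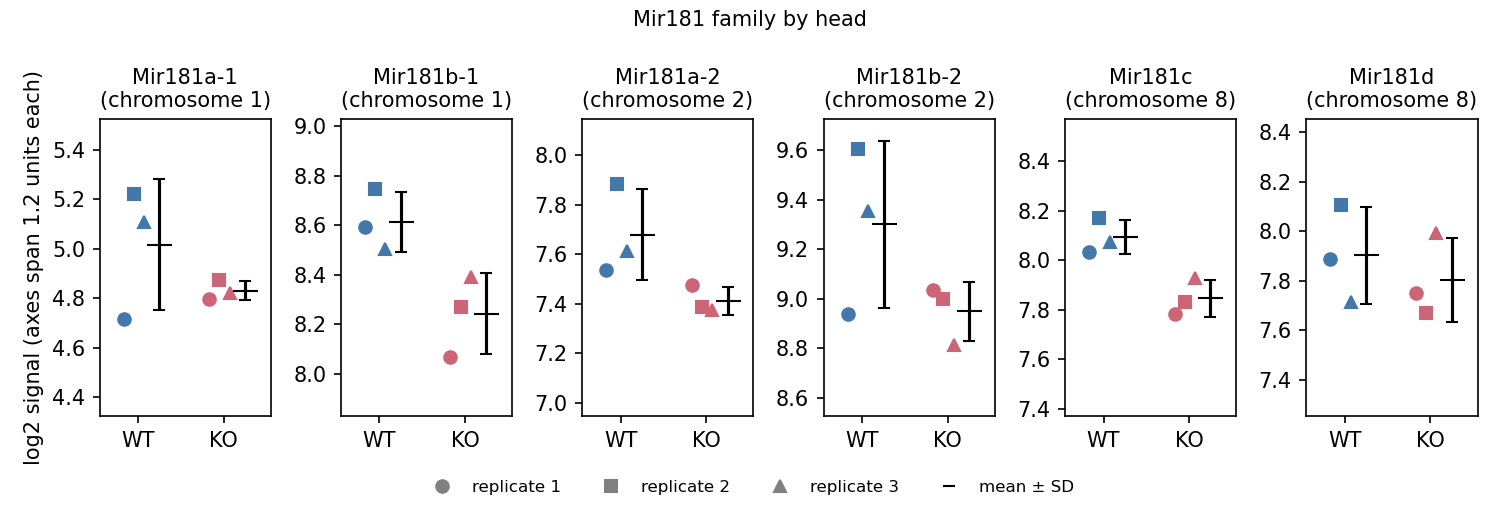
Log2 signal of the 6 Mir181 probe sets by head, in genomic pairs; symbols mark replicates 1 to 3, bars give the mean ± SD of 3 heads, and each vertical axis spans 1.2 log2 units. KO heads lie below all WT heads for Mir181b-1, Mir181a-2 and Mir181c, and overlap them for Mir181a-1, Mir181b-2 and Mir181d.

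The 5 members of the Mir17-92 polycistron were all lower in KO heads, with a median of -0.19 log2 units, but by very unequal amounts. Mir18 read 8.43, 8.86 and 8.70 in WT and 7.95, 8.38 and 8.34 in KO heads. The groups did not overlap, though KO 2 and WT 1 were only narrowly apart. Its difference was -0.44 (SE 0.15, 95% confidence interval -0.80 to -0.08), with an unadjusted limma p of 0.0224 and an adjusted p of 0.848. The Mir18 difference was -0.31 without KO 1, -0.34 without WT 2 and -0.56 without WT 1. Mir20a read 4.67, 4.85 and 4.72 against 4.53, 4.66 and 4.52, a difference of -0.18 (-0.36 to -0.00) at a dim signal.

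Mir19b-1 read 5.26, 5.78 and 5.66 in WT and 4.70, 5.13 and 5.47 in KO heads, a difference of -0.46 (-0.97 to 0.05) with overlap, and of -0.26 without KO 1, the lowest head. Mir19a differed by -0.19 (-0.58 to 0.20), by -0.37 without WT 1, by -0.08 without WT 2 and by -0.12 without WT 3. Mir17, the founding member of the cluster, differed by -0.03 (-0.20 to 0.15), and this sign turned without WT 3. WT 1 was the lowest WT head in all 5 members, and without it the median difference was -0.37. At an unadjusted limma p under 0.05, 2 of the 5 were lower, where 2.25% of all probe sets were. That count was 4 without WT 1 and 0 without WT 2, WT 3 or KO 1. With an ordinary linear model or Xist signal as a covariate it was also 0.

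The host RNA gave no such difference. The Mir17hg probe set read 8.74, 8.81 and 8.79 in WT and 8.67, 8.87 and 8.93 in KO heads, a difference of 0.05 (-0.14 to 0.24). A probe set shared by Mir92-1 and Mir17hg, at the end of the cluster, read 7.03, 7.63 and 7.62 against 6.96, 7.20 and 7.13, a difference of -0.33 (-0.74 to 0.08). Its WT 1 value lay among the KO heads.

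**Figure D4:**
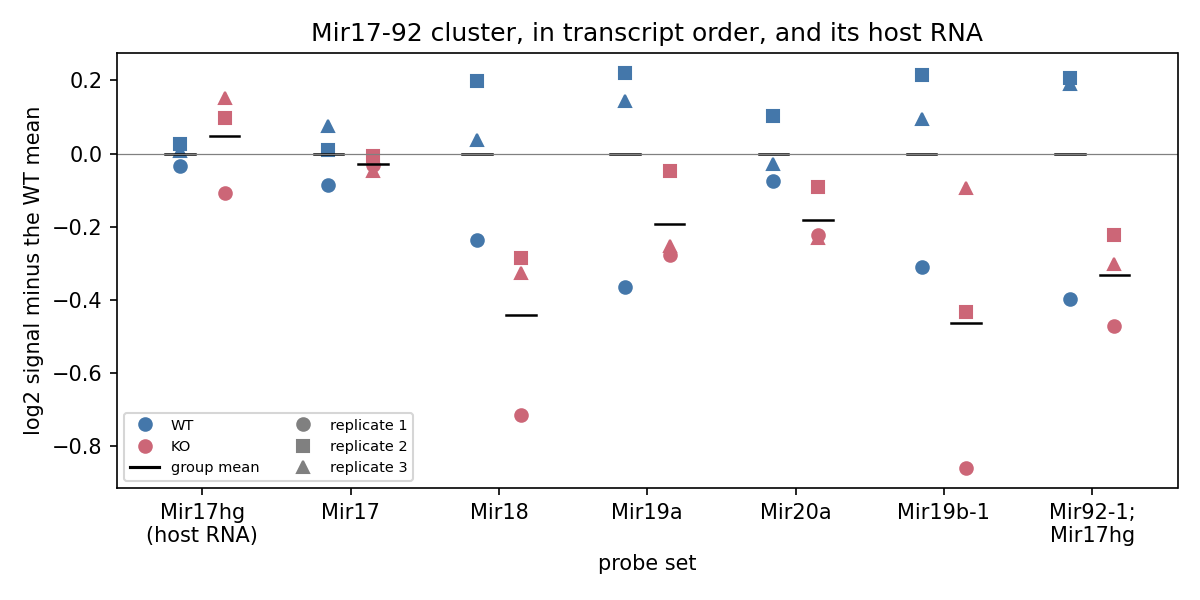
Log2 signal minus the WT mean for the Mir17-92 probe sets in transcript order, with the host RNA first; blue is WT, red is KO, symbols mark replicates 1 to 3, and black bars are group means. KO means lie from 0.03 below WT for Mir17 to 0.46 below for Mir19b-1, and the Mir17hg mean lies 0.05 above.

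The paralogous clusters of Mir17-92 held values on both sides of 0. The X-linked Mir106a-363 cluster had differences of 0.01 (Mir106a), 0.10 (Mir20b), 0.07 (Mir19b-2), -0.14 (Mir92-2) and -0.18 (Mir363). Their median was 0.01, and it was -0.03 with quantile normalization. In the Mir106b-25 cluster, which lies in an intron of the replication gene Mcm7, Mir25 read 8.66, 8.25 and 8.24 in WT and 7.97, 8.05 and 8.24 in KO heads, a difference of -0.30 (-0.61 to 0.02). Mir93 differed by 0.02 and Mir106b by -0.04, and Mcm7 itself by -0.03 (-0.13 to 0.08). Grouped by seed, the 6 genes with AAAGUGC, all in these clusters, had a median of -0.01. The 6 members with AUUGCAC (the miR-92 and miR-25 seed) had a median of -0.16 with 5 of 6 lower; of these, Mir25, Mir92-2 and Mir363 lie in these clusters, and Mir32, Mir367 and Mir92b lie elsewhere.

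The imprinted Dlk1-Dio3 region of chromosome 12 holds the longest run of members. Its microRNAs are made from maternally expressed non-coding RNAs, among them Meg3, Rian and Mirg. The 30 members from Mir379 to Mir369 had a median difference of -0.05 log2 units, with 8 higher and 22 lower, and 4 were lower at an unadjusted p under 0.05. The share lower at that threshold was 5.03% over the members and 2.25% over all probe sets. These 30 are neighbours read on the same arrays and are not independent replicates. Without WT 1 the split was 4 higher and 26 lower, and without WT 2 it was 12 and 18.

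Mir382 read 7.49, 7.36 and 7.64 in WT and 7.17, 7.16 and 7.25 in KO heads. The groups did not overlap, and the difference was -0.30 (SE 0.09, 95% confidence interval -0.52 to -0.09, limma adjusted p = 0.848). Mir134, which lies beside it and is known for limiting dendritic spine growth, differed by -0.17 (-0.31 to -0.02). Mir377 differed by -0.20 (-0.36 to -0.03) and Mir376b by -0.18 (-0.33 to -0.04). In these 3 as well, every KO head lay below every WT head.

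Members nearer to Meg3 did not follow. The 7 from Mir337 to Mir136 had a median of 0.06 with 5 higher, which turned to -0.03 with 2 higher without WT 1. Mir341 and Mir370, within Rian, differed by 0.20 and 0.05. Among the transcripts themselves, Rian differed by 0.34 (-0.03 to 0.72), Meg3 by 0.04 (-0.10 to 0.18) and a probe set shared by Mirg and Mir410 by -0.10 (-0.37 to 0.18). None of the 3 passed the test.

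The let-7 family, which promotes differentiation and is held back in embryonic cells by Lin28 proteins, had a median difference of -0.04 over 10 members, with 3 higher and 7 lower. The Mir99b-let7e-125a polycistron on chromosome 17 had a median of -0.25. Mir99b read 7.93, 7.84 and 7.78 in WT and 7.61, 7.50 and 7.68 in KO heads, a difference of -0.25 (-0.44 to -0.06, limma adjusted p = 0.848). Mirlet7e read 7.74, 7.60 and 7.60 against 7.48, 7.22 and 7.45, a difference of -0.26 (-0.48 to -0.04). Neither overlapped between groups. The third gene of the polycistron, Mir125a, differed by -0.11 (-0.40 to 0.18), and the host gene Spaca6 by 0.02.

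Other let-7 loci differed in both directions. On chromosome 13, Mirlet7d, Mirlet7f-1 and Mirlet7a-1 differed by -0.22, -0.33 and -0.06, each with overlap. Mirlet7a-2 on chromosome 9 read 5.27, 5.54 and 5.65 in WT and 5.72, 5.69 and 5.81 in KO heads, a difference of 0.25 (-0.01 to 0.51) without overlap. Beside it Mir100 differed by 0.19 and Mir125b-1 by -0.30, while their host RNA Mir100hg differed by 0.01. On chromosome 16, Mir99a differed by -0.00, and 4 probe sets of its host RNA Mir99ahg differed by -0.09, 0.34, 0.42 and 0.42.

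Of the remaining members at an unadjusted p under 0.05, Mir186 was lower and Mir687 higher. Mir186 read 7.49, 7.30 and 7.50 in WT and 7.13, 7.35 and 7.03 in KO heads, a difference of -0.26 (-0.52 to -0.00), while its host Zranb2 differed by -0.06. Mir687 read 5.46, 5.97 and 5.94 in WT and 6.27, 6.34 and 5.97 in KO heads, a difference of 0.40 (0.01 to 0.80). Without WT 1, the lowest head, the Mir687 difference was 0.24. Both overlapped between groups, and both had an adjusted p of 0.856.

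The next members on the higher side by p were Mirlet7a-2, Mir202, Mir450-2, Mir568, Mir195a, Mir190b, Mir217, Mir302b and Mir491, with differences from 0.11 to 0.27 and unadjusted p from 0.0565 to 0.135. Mir701 had a larger difference, 0.50, but WT 1 read 4.52 beside 5.90 and 5.91 in the other WT heads and 5.67 to 6.20 in KO heads. It was named after its values were seen, and its unadjusted p was 0.228.

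Further neural microRNAs, a list of 25 that includes the Mir181 family, had a median of -0.10 log2 units with 8 higher and 17 lower. The 4 of them at an unadjusted p under 0.05 (5.71% of all probe sets were) were Mir181b-1, Mir181c, Mir181a-2 and Mir134, all described above. Outside Mir181, Mir212 differed by -0.17, Mir135a-1 by -0.15 and Mir132 by -0.10, while Mir153 differed by 0.18 and Mir7b by 0.12. Mir137, a regulator of neuronal maturation, differed by 0.05 (-0.20 to 0.30), and the probe sets of Mir128-1 and Mir128-2 by 0.07 and 0.09.

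MicroRNAs typical of other tissues differed little, but most of these probe sets were dim. The median percentile of mean signal was 8.7 for the muscle list, 21.2 for Mir200 and 5.3 for Mir144 and Mir451a. It was 6.3 for Mir126a, 8.5 for Mir142, 16.4 for Mir122 and 10.2 for the Hox list, but 65.2 for Mir210. The 9 muscle and smooth muscle microRNAs had a median of -0.01, with Mir133a-2 at -0.10 and Mir145a at -0.14. The epithelial Mir200 family (5) had a median of -0.00. Erythroid Mir144 and Mir451a differed by 0.08 and 0.03, endothelial Mir126a by 0.09 (-0.04 without WT 1), myeloid Mir142 by -0.12, liver Mir122 by -0.09 and hypoxia-linked Mir210 by -0.08. The 6 members in Hox clusters, whose genes are active behind the midbrain, were all lower, with a median of -0.06; without WT 1 it was 5 of 6.

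Some small groups of dim probe sets lay above 0 without any member at an unadjusted p under 0.05. Their median percentile of mean signal was 13.2 for Mir34, 10.4 for the Mir183 cluster and 2.5 for the Mir302 and Mir367 cluster. The 3 Mir34 members, targets of p53, differed by 0.14 (Mir34a), 0.14 (Mir34b) and 0.09 (Mir34c). The sensory cluster of Mir183, Mir96 and Mir182 had a median of 0.09 with 3 of 3 higher. The cluster of Mir302 genes and Mir367, active in pluripotent cells, had a median of 0.03 with 5 of 5 higher, but 3 of 5 with quantile normalization or median centring. On the lower side, the Mir15/16 family had a median of -0.07 (0.02 without WT 2), with Mir15b at -0.31, Mir497 at -0.16 and Mir195a at 0.15, and the 3 Mir23-27-24 members a median of -0.08. The 8 Mir29 and Mir30 members had a median of -0.01, with Mir30e at -0.24.

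**Figure D5:**
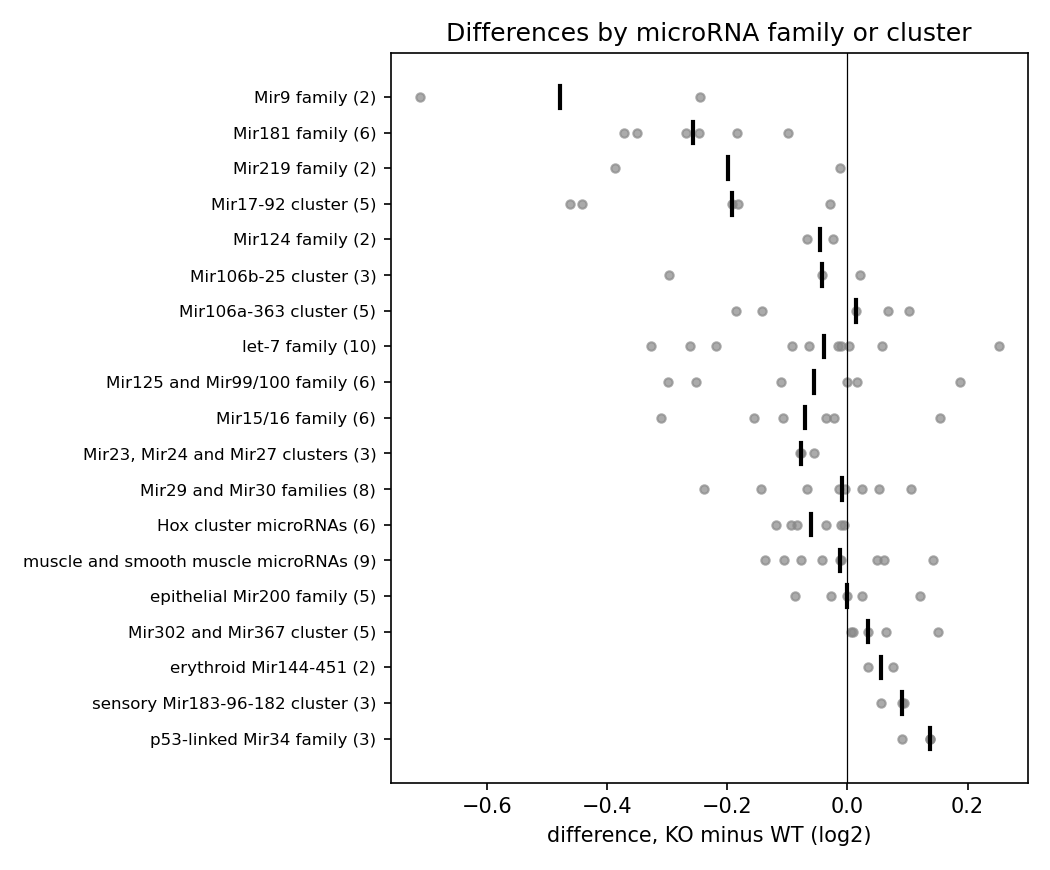
KO minus WT difference in log2 units for every member (grey points) of 19 microRNA families and clusters, with black bars at the medians and the number of members in brackets. Medians run from -0.48 for Mir9 to 0.14 for Mir34, and Mir9, Mir181, Mir219 and Mir17-92 are the groups at -0.19 or below.

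By position in the genome, chromosome 2, which carries Tasp1, held 22 members with a median of -0.03, and 2 of them, Mir219a-2 and Mir181a-2, were at an unadjusted p under 0.05. The 1841 probe sets with 1 symbol on that chromosome had a median of -0.01. At an unadjusted limma p under 0.05, 52 of these 1841 were higher and 63 lower. Among all 21789 probe sets with 1 symbol, 329 were higher (1.51%) and 547 lower (2.51%), 4.02% in either direction. Both shares were larger on chromosome 2. Over all probe sets, with or without 1 symbol, the share in either direction was 5.71%. The members nearest to Tasp1, Mir103-2, Mir695 and Mir499, differed by 0.02, 0.07 and 0.05. The 39 members on the X chromosome had a median of 0.03 with 28 higher and 11 lower, against -0.02 for the 259 elsewhere. That X median was 0.05 without WT 2, the head with the female pattern, but -0.01 without WT 1, -0.01 with quantile normalization and -0.00 with median centring.

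Members sharing a transcript, and members and their hosts, were also set side by side. With neighbours on 1 strand no more than 10 kb apart joined, 150 members fell into 48 clusters. A host gene on the same strand had a probe set for 90 members (72 hosts), and member and host differed in the same direction in 48 of the 90; the Spearman correlation of their differences was 0.29, a description over pairs that share arrays and in part share hosts. Hairpin sequences were matched for 260 members, with a G and C content of 28.4% to 69.2%. Across these 260, that content had a Spearman correlation of 0.60 with mean signal and of -0.17 with the KO minus WT difference; members share the arrays, and genes are not independent replicates.

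Among genes that make and use microRNAs, 0 probe sets had a limma adjusted p under 0.05. At an unadjusted p under 0.05 stood 1 of 16 biogenesis probe sets (Drosha) and 1 of 12 effector probe sets (Ago3). Both were higher in KO heads, and the share over all probe sets was 5.71% in either direction and 3.46% higher. The biogenesis list (16 probe sets of 14 genes) had a median of 0.00; Drosha differed by 0.09, Dgcr8 by 0.01, Xpo5 by 0.03 and Dicer1 by 0.05. Among effectors (12 probe sets of 10 genes, median 0.02), Ago3 differed by 0.26, while the 2 Ago2 probe sets differed by 0.11 and 0.12 and Ago1 by 0.00. Ago3 read 9.10, 9.46 and 9.39 in WT and 9.64, 9.57 and 9.51 in KO heads, with WT 1 the lowest head. The regulators and targets of let-7 (9 probe sets of 8 genes) had a median of 0.09 with 8 higher, and 0 stood at an unadjusted p under 0.05. Their mean signal overlapped between groups, from 10.11 to 10.32 in WT and from 10.19 to 10.34 in KO heads. Lin28b, which blocks let-7 maturation, differed by 0.17 (confidence interval -0.14 to 0.49) and Lin28a by 0.12 (-0.26 to 0.51). Tut4, which tags let-7 precursors for decay, differed by 0.12 (-0.01 to 0.24). Each of these intervals included 0.

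Markers of the cell types in the sample were read beside these values, as mean log2 signal over each list. Neural progenitor markers (9 genes) ran from 11.14 to 11.27 in WT and from 11.09 to 11.15 in KO heads, which overlapped. Of these, 7 of 9 were lower, with a median of -0.04. Lhx2 differed by -0.33, Vim by -0.10, Pax6 by -0.06 and Sox1 by -0.02, while Sox2 (0.03) and Otx2 (0.04) were higher. Neuron markers (9 genes) ran from 9.61 to 9.87 in WT and from 9.34 to 9.76 in KO heads; all 9 were lower, with a median of -0.12 and Neurod1 at -0.46, and 8 of 9 without WT 2. Erythroid markers ran from 10.47 to 10.59 against 10.34 to 10.43, with 6 of 6 lower by unequal amounts. Hbb-bh1 differed by -0.21, but the brighter globin genes Hba-x and Hbb-y by only -0.02 and -0.0005. Muscle markers ran from 7.22 to 7.34 against 7.07 to 7.19, with 5 of 7 lower. Among muscle markers, Acta2 differed by -0.59, Tagln by -0.43 and Myh7 by -0.03, while Myf5 (0.07) and Myog (0.04) were on the higher side. Endothelial (8.95 to 9.07 against 8.99 to 9.01), macrophage (7.23 to 7.30 against 7.18 to 7.29), mesenchyme (9.59 to 9.62 against 9.49 to 9.78) and surface ectoderm lists (8.89 to 9.05 against 8.85 to 8.90) overlapped between groups. Single genes in them differed more. In surface ectoderm, with 5 of 7 lower, Cldn6 differed by -0.32, Tfap2c by -0.30 and Cdh1 by 0.16. Among macrophage markers, with 2 of 6 lower, C1qb differed by -0.30. None of these marker genes passed the adjusted threshold, and the part of cell composition in the Mir9, Mir181 and Mir17-92 differences was not tested.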

How the data were processed

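The deposited table holds 1 log2 signal per probe set and array. Affymetrix Expression Console and MAS5 are named, without version or role, per the submitters' processing notes; background correction, scaling and probe summary by the authors are steps not given in the sources used here. Their effect on dim probe sets is unknown. The design had allowed for linear signals with 16 added before log2; the deposited values were log2 already and were used as they are. Genes were named from the platform annotation, and all 298 members were matched to the gene table of GRCm38.p6, used for chromosome, order and host genes; the array's own build was not given in the sources used here.

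KO and WT heads were compared with limma 3.58.1 (R 4.3.3): lmFit, then eBayes with trend, on all 35556 probe sets and all 6 heads, without covariates. Tests were two-sided, p-values were adjusted (Benjamini-Hochberg) over all probe sets, and the threshold was 0.05. The number of arrays limits the precision. The procedure was tested on simulated data with independent noise for each probe set and head. Those data held no offset shared by a whole array and no difference by sex, so the effect of either was not tested. Lists were described by counts and medians only.

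The members and lists were chosen with earlier results of these data known. Named were the members of the Mir9, Mir124, Mir219, Mir17-92, Mir106a-363 and Mir106b-25 lists, up to 4 members of other lists and clusters with the smallest p, the 10 higher and 10 lower members with the smallest p, hosts of these, and up to 4 genes of each gene list; further names serve to complete a family or list and were chosen after their values were seen. The pattern of the Mir29 and Mir30 list was corrected after it had matched unrelated names. The replicate numbers were tested for pairing: deviations of same-numbered heads correlated at -0.12, -0.03 and -0.32, so no block was used. Alternatives were the replicate block, quantile normalization, median centring, 16 added on the linear scale, the 60% brightest probe sets, probe sets with 1 symbol, 2 other variance models, Xist signal as a covariate and each head left out.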

Additional observations from a re-analysis of the deposited data

How the results depend on the processing

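Under each of the 15 alternatives, 0 members had an adjusted p under 0.05. The number at an unadjusted p under 0.05 (16) was 25 when only probe sets with 1 symbol were fitted, and ran from 10 (without KO 1) to 23 (without WT 1) with 1 head left out. Of these, the number lower in KO heads (15) was 23 with quantile normalization and 9 with Xist signal as a covariate or without WT 2. The number higher in KO heads (1) was 8 without WT 3 and 5 without KO 3. The Mir9 family median (-0.48) was -0.41 with 16 added on the linear scale. The Mir17-92 median (-0.19) ran from -0.37 (without WT 1) to -0.13 (without WT 2) with 1 head left out. With 1 head left out, differences that changed sign ran from -0.155 to 0.0917 for Mir124a-3 (0.0707 without WT 1), from -0.0659 to 0.0676 for Mir219a-1 (0.00914 without KO 2), from -0.0705 to 0.00975 for Mir17 and from -0.194 to 0.00204 for Mir181d. Mir181d also turned, to 0.00826, with Xist signal as a covariate. The causes were not tested. With the replicate number as a block, which the check of pairing did not bear out, 0 members were called and 12 were at an unadjusted p under 0.05. The brightness filter left no complete Mir9, Mir124, Mir17-92 or Mir181 family, so no median was taken there. Quantile normalization moved the median of all probe sets to -0.02 and median centring to -0.03. The Mir181 median was added after seeing the data. With 3 heads a group, dim probe sets and 1 array a head, the 95% confidence intervals had a median half-width of 0.22 log2 units. They included 0 for every member except the 16 at an unadjusted limma p under 0.05.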

Other observations

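Among the 61 probe sets that carry a microRNA among several symbols, a few lie outside the groups described so far and were chosen after their values were seen. Both probe sets named Mir344-2;Mir344 were higher in KO heads. One read 8.11, 8.65 and 8.65 in WT and 8.91, 8.80 and 8.77 in KO heads, a difference of 0.36 (95% confidence interval -0.00 to 0.71), and the other differed by 0.32 (0.02 to 0.61), each with a limma adjusted p of 0.856. In both, WT 1 was the lowest head by far. A probe set named Mir675;Supt6 read 10.87, 11.19 and 11.20 against 10.92, 10.63 and 10.85, a difference of -0.29 (-0.55 to -0.03), and its groups overlapped. The X-linked cluster of Mir500, Mir501, Mir362, Mir188 and Mir532 had a median of 0.12 with 5 of 5 higher, 0.04 with 3 of 5 higher without WT 1, and 4 of 5 higher with quantile normalization.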
